A study of Caenorhabditis elegans with 8 samples.

Results

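The 9 yolk genes described here are the 6 vitellogenin genes vit-1 to vit-6, the oocyte yolk receptor gene rme-2, and ceh-60 and unc-62, which encode transcription factors of the vitellogenin genes. They were chosen by name, and all 9 were found among the 46093 genes of the deposited count table. Poly(A) RNA of whole Caenorhabditis elegans worms was sequenced in 4 libraries of a strain labelled atf-6 and 4 libraries of the wild-type strain N2. All worms were day 1 adults kept at 20 °C and fed OP50-1 bacteria for 72 h from synchronized first-stage larvae, with about 1000 worms started per culture. The labels name no allele for the atf-6 strain and no other mutation, transgene or drug in either strain. They call the 4 replicates of each strain independent, without saying what they shared, and name no batch.

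Vitellogenins are yolk protein precursors related to the apolipoprotein B of vertebrate lipoproteins. The intestine of the adult hermaphrodite makes them and secretes them into the body cavity, and growing oocytes take them up with their bound lipid through RME-2, a receptor of the low-density lipoprotein receptor family. CEH-60, a PBX-class homeodomain protein, and UNC-62, a MEIS-class homeodomain protein, act in the intestine to switch on vitellogenin genes. The ATF-6 protein is a transcription factor of the endoplasmic reticulum stress response, and yolk, as a secreted protein, passes through that compartment. The comparison of strains asks here whether the transcripts for making and taking up yolk differed in level.

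The libraries held 12664222 to 21698298 estimated counts each. The whole transcript of atf-6 averaged 14.99 ± 0.804 CPM in atf-6 libraries and 12.3 ± 1.06 CPM in wild-type libraries (SD, n = 4 each; CPM is counts per 1000000 of the scaled library size). Its log2 fold change was 0.28 and missed the threshold (adjusted p = 0.346, edgeR quasi-likelihood test). With no allele named, this level does not check the strain labels. Of 12375 genes tested, 101 (0.816%) passed at an adjusted p of 0.05. That count was 32, 37, 41 and 20 without atf-6 replicates 1 to 4, and 30, 40, 107 and 16 without wild-type replicates 1 to 4.

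The vitellogenins were among the most heavily sequenced genes of these worms and the strains differed in them by less than the spread of the replicates. Together the 6 genes took 9.86%, 9.999%, 9.14% and 9.89% of all counts in atf-6 replicates 1 to 4, against 8.89%, 9.32%, 9.93% and 9.90% in wild-type replicates 1 to 4. The means were 9.72 ± 0.392% in atf-6 and 9.51 ± 0.498% in wild type (SD, n = 4 each). The ranges overlapped, and the lowest library of each strain, atf-6 replicate 3 and wild-type replicate 1, were also the 2 lowest of all 8. Counts grow with transcript length, and the vitellogenin transcripts are long, with mean effective lengths of 4899 to 5248 bases. By counts, vit-2, vit-6, vit-5, vit-3, vit-4 and vit-1 ranked 1, 2, 3, 5, 6 and 8 of the 12375 tested genes.

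**Figure D1:**
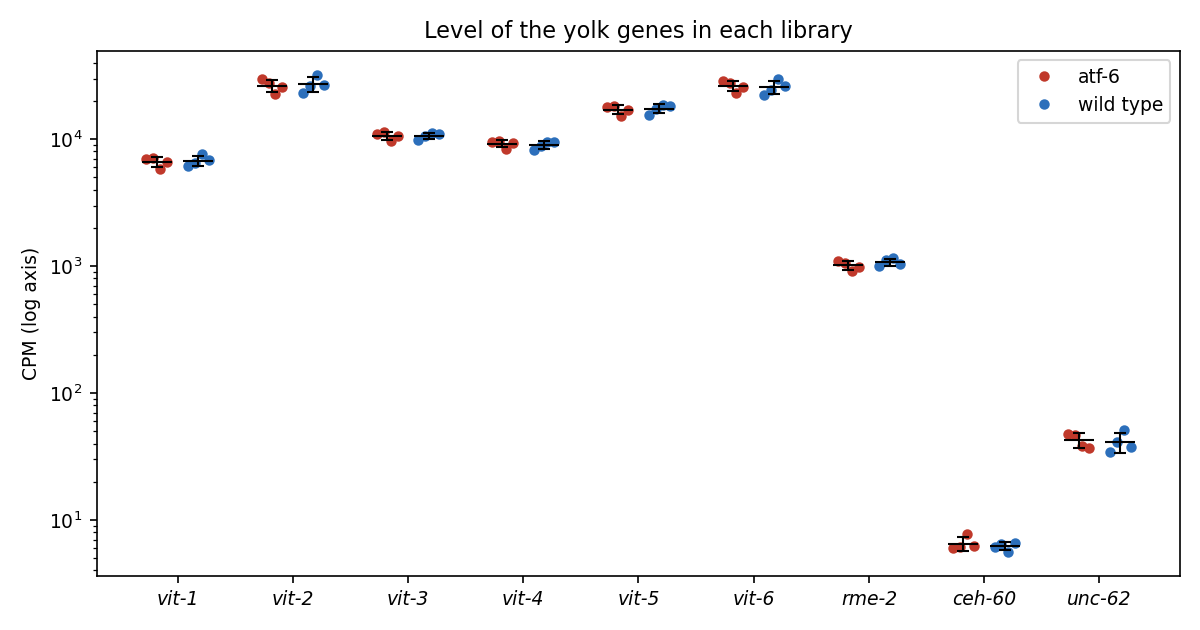
Level of each of the 9 yolk genes in CPM on a log axis, atf-6 libraries in red and wild-type libraries in blue, with mean and SD (n = 4 each). The strains overlap for every gene, and the genes span from about 6 CPM for ceh-60 to between 22388 and 32276 CPM for vit-2 and vit-6.

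Per unit of length, in TPM (transcripts per 1000000), vit-2 and vit-6 led. vit-2 averaged 2463 ± 190.5 TPM in atf-6 libraries and 2494 ± 114 TPM in wild-type libraries (SD, n = 4 each). vit-6 averaged 2463 ± 206 TPM in atf-6 and 2374 ± 131 TPM in wild type. vit-2 was above vit-6 in 7 of the 8 libraries, with a ratio of 0.962 to 1.08, so this neighbouring pair did not differ beyond its spread. vit-5 followed at 1660 ± 178 TPM in atf-6 and 1671 ± 130 TPM in wild type. vit-3 had 1031 ± 113 TPM in atf-6 and 1021 ± 67.9 TPM in wild type. vit-4 stood lower, at 898 ± 102 TPM in atf-6 and 866 ± 67.1 TPM in wild type. The ranges of vit-3 and vit-4 over the 8 libraries overlapped, yet vit-3 was the higher of the pair within each of the 8, by 1.13 to 1.20 times. vit-1 was the lowest vitellogenin, with 608 ± 62.8 TPM in atf-6 and 612 ± 24.8 TPM in wild type. rme-2 (173 ± 14.5 TPM in atf-6, 181 ± 9.28 TPM in wild type), unc-62 (12.996 ± 0.855 TPM in atf-6, 12.4 ± 0.793 TPM in wild type) and ceh-60 (3.59 ± 0.879 TPM in atf-6, 3.37 ± 0.506 TPM in wild type) completed the order, each separated from its neighbours in all 8 libraries. TPM is used here to rank genes within a library: transcripts with an effective length under 300 bases took 58.9% to 66.7% of all TPM but 7.70% to 8.995% of reads, so a library's TPM also moves with those short RNAs.

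vit-1 and vit-2 encode the yolk protein YP170B. vit-1 (WBGene00006925, chromosome X, 7727889 to 7733168, plus strand, build WBcel235) had 6998, 7139, 5803 and 6576 CPM in atf-6 replicates 1 to 4, against 6169, 6491, 7617 and 6817 CPM in wild-type replicates 1 to 4. The strains overlapped, with the lowest value in atf-6 replicate 3 and the highest in wild-type replicate 3. vit-2 (WBGene00006926, chromosome X, 5101042 to 5106169, plus strand) had 29550, 27778, 22509 and 25880 CPM in atf-6 replicates 1 to 4, against 23289, 26115, 32276 and 26970 CPM in wild-type replicates 1 to 4. It varied most among the vitellogenins, 1.43-fold between atf-6 replicate 3 and wild-type replicate 3. Within strains its coefficient of variation (SD over mean of CPM) was 12.7%, more than that of 81.9% of the 4817 well-expressed genes (mean log2 CPM 5 or above).

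vit-3, vit-4 and vit-5 encode the yolk protein YP170A and are so alike that they share reads. All lie on chromosome X: vit-3 (WBGene00006927, 3567355 to 3572549) and vit-4 (WBGene00006928, 3558769 to 3563965) on the minus strand, 3389 bases apart, and vit-5 (WBGene00006929, 3403471 to 3408603) on the plus strand. Because the division of shared reads among them is uncertain, their sum is the firmer value. It was 38455, 39105, 33204 and 36921 CPM in atf-6 replicates 1 to 4, against 33660, 36756, 39206 and 38786 CPM in wild-type replicates 1 to 4. Again atf-6 replicate 3 and wild-type replicate 1 were lowest, and the strains overlapped. Singly, vit-3 ranged from 9677 to 11327 CPM in atf-6 and 9800 to 11231 CPM in wild type. vit-4 ranged from 8349 to 9643 CPM in atf-6 and 8219 to 9476 CPM in wild type. vit-5 ranged from 15179 to 18134 CPM in atf-6 and 15642 to 18499 CPM in wild type. Their coefficients of variation within strains, 6.25%, 6.52% and 7.78% for vit-3, vit-4 and vit-5, were below the median of 7.95% for those well-expressed genes.

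vit-6 encodes a precursor that is cut into the smaller yolk proteins YP115 and YP88. It is the vitellogenin gene outside the X chromosome (WBGene00006930, chromosome IV, 8261157 to 8266459, plus strand). It had 28567, 27526, 23328 and 25765 CPM in atf-6 replicates 1 to 4, against 22388, 24483, 29670 and 26429 CPM in wild-type replicates 1 to 4. The library order was close to that of vit-2, with wild-type replicate 3 highest, wild-type replicate 1 lowest and atf-6 replicate 3 next.

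**Figure D2:**
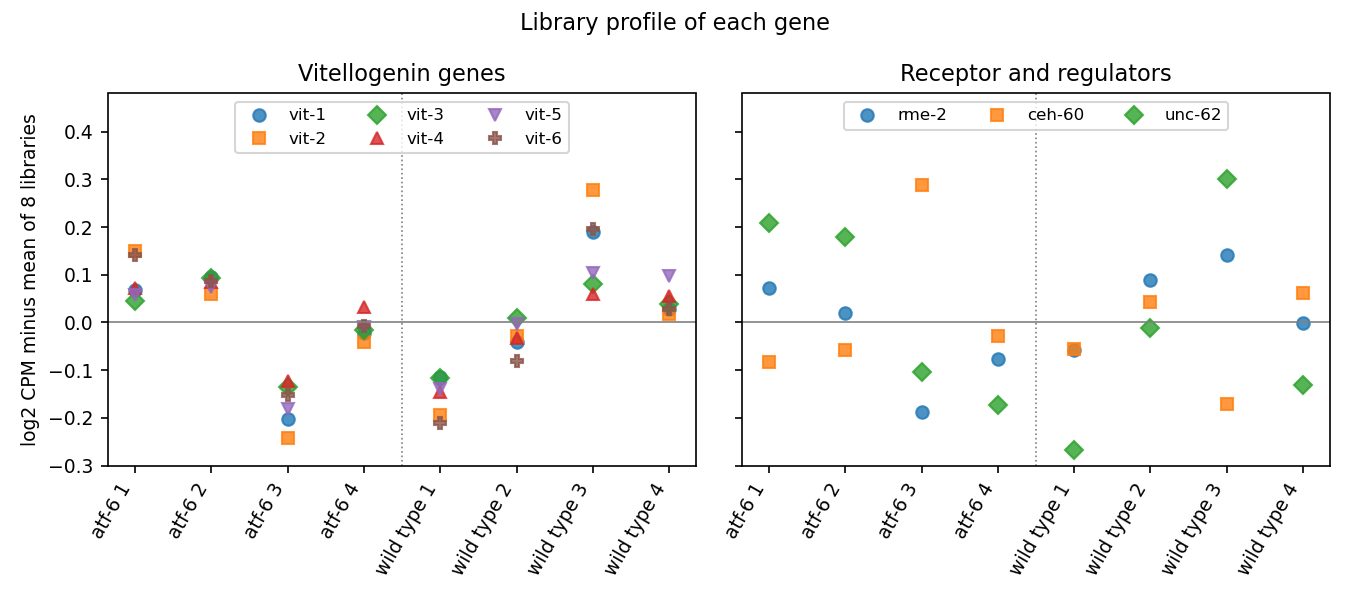
Each gene's log2 CPM minus its own mean over the 8 libraries, atf-6 replicates left and wild-type replicates right of the dotted line. The 6 vitellogenins lie on the same side of 0 in 6 of the 8 libraries, all low in atf-6 replicate 3 and wild-type replicate 1, while ceh-60 is highest in atf-6 replicate 3.

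The 6 vitellogenins moved together from library to library. The likeness of 2 genes was measured as the root mean square difference of their log2 CPM, each centred on its mean over the 8 libraries, a measure that a common scaling of a library leaves as it is. It was 0.03 to 0.10 for the 15 pairs of vitellogenins, lowest for vit-3 with vit-4 and highest for vit-2 with vit-4. Pairs among vit-3, vit-4 and vit-5 had 0.0288 to 0.0351, but these genes share reads, so their likeness is not separate evidence. For rme-2 with each vitellogenin the difference was 0.06 to 0.09, for unc-62 0.10 to 0.15 and for ceh-60 0.19 to 0.27. Beside these, the median of 4809 other well-expressed genes against the vitellogenin total was 0.12. ceh-60 itself lay below the level that those genes had to reach. Counts also differed widely, at 80 to 161 a library for ceh-60 and 453 to 872 for unc-62, against 81244 or more for each vitellogenin. Fewer counts bring more counting noise, and its part in these differences was not tested. The shared pattern was not one of strain. On this scale the vitellogenin total stood at 0.11, 0.08, -0.18 and -0.02 in atf-6 replicates 1 to 4, and at -0.17, -0.04, 0.18 and 0.04 in wild-type replicates 1 to 4. Wild-type replicate 3 deviated most upward and atf-6 replicate 3 most downward. These libraries also had the lowest and the highest TMM scaling factor (0.913 and 1.08). As a share of all counts, without that scaling, wild-type replicate 3 held 9.93%, beside 9.90% in wild-type replicate 4 and 9.999% in atf-6 replicate 2. By that share atf-6 replicate 3 (9.14%) was above wild-type replicate 1 (8.89%). The order of libraries thus depends on the scale, and the part of the scaling in these deviations was not tested.

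The make-up of the vitellogenin transcripts varied little. In TPM, vit-2 gave 27.03 ± 0.830% of the total in atf-6 and 27.6 ± 1.15% in wild type (SD, n = 4 each), and vit-6 gave 27.02 ± 0.261% in atf-6 and 26.3 ± 0.555% in wild type. vit-5 gave 18.2 ± 0.308% in atf-6 and 18.5 ± 0.717% in wild type. vit-3 gave 11.3 ± 0.347% in atf-6 and 11.3 ± 0.524% in wild type, and vit-4 gave 9.83 ± 0.285% in atf-6 and 9.57 ± 0.426% in wild type. vit-1 gave the least, 6.66 ± 0.111% in atf-6 and 6.77 ± 0.143% in wild type. For each of the 6 genes the ranges of the strains overlapped. Wild-type replicate 3 had the highest share of vit-2 (29.3%) and the lowest shares of vit-3, vit-4 and vit-5 of all 8 libraries.

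**Figure D3:**
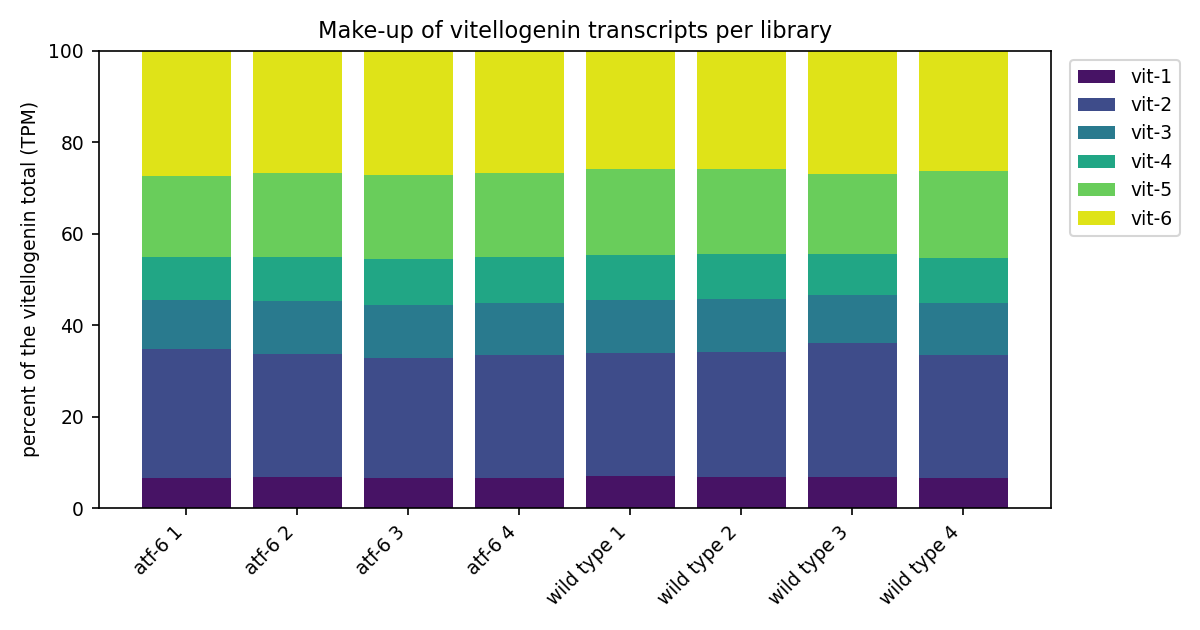
Share of each vitellogenin gene in the summed vitellogenin TPM, 1 bar per library, atf-6 replicates left of wild-type replicates. vit-2 and vit-6 each make up between 25.8% and 29.3% in every library, and vit-1 between 6.54% and 6.97%.

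Ratios between yolk genes do not depend on how a library is scaled. The vitellogenin total per rme-2 count was 94.5, 96.1, 92.8 and 96.3 in atf-6 replicates 1 to 4, against 85.5, 84.7, 94.6 and 95.1 in wild-type replicates 1 to 4. Wild-type replicates 1 and 2 lay below all other libraries, and wild-type replicates 3 and 4 lay within the atf-6 range. vit-6 per vit-5 count was 1.59, 1.52, 1.54 and 1.505 in atf-6, against 1.43, 1.42, 1.60 and 1.44 in wild type. Here wild-type replicate 3 was highest of all and the other 3 wild-type libraries were lowest. vit-2 per vit-5 count was 1.65, 1.53, 1.48 and 1.51 in atf-6, against 1.49, 1.52, 1.74 and 1.46 in wild type, highest in wild-type replicate 3 and next in atf-6 replicate 1. The strains overlapped in all 3 ratios, which were chosen after values were seen and were not tested.

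**Figure D4:**
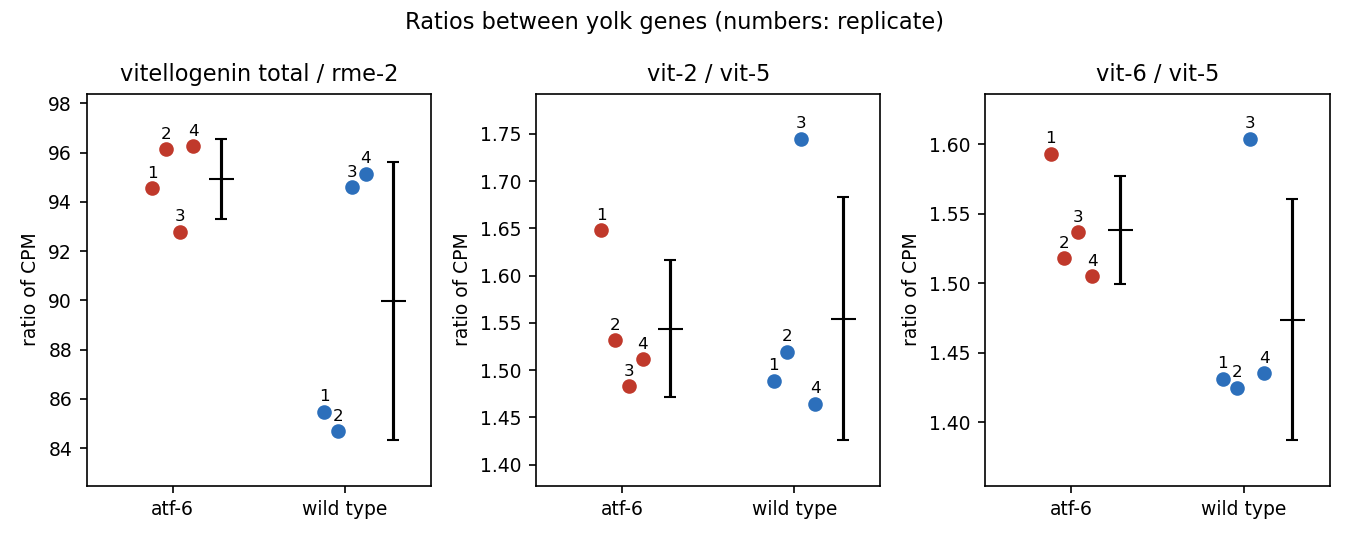
Ratios of CPM between yolk genes in each library, atf-6 left and wild type right, with mean and SD (n = 4 each); digits beside points are replicate numbers and each vertical axis covers only the range of its ratio. The vitellogenin total per rme-2 is between 92.8 and 96.3 in atf-6 and between 84.7 and 95.1 in wild type.

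The receptor gene rme-2 (WBGene00004374, chromosome IV, 5470026 to 5473174, plus strand) acts in the oocyte, on the receiving side of yolk transport. It had 1095, 1056, 914 and 988 CPM in atf-6 replicates 1 to 4, against 1000.4, 1108, 1150 and 1041 CPM in wild-type replicates 1 to 4. atf-6 replicate 3 was lowest and wild-type replicate 3 highest, and the strains overlapped. In this RNA from whole worms, fewer cells of a type and less RNA per cell cannot be told apart.

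The regulator genes lay far below the vitellogenins, ceh-60 at rank 7878 and unc-62 at rank 4198 of the 12375 tested genes by counts. ceh-60 (WBGene00017690, chromosome X, 6522596 to 6530146, minus strand) had 81 to 161 counts in atf-6 libraries and 80 to 143 counts in wild-type libraries. Scaled for depth it had 5.96, 6.06, 7.70 and 6.19 CPM in atf-6, against 6.07, 6.50, 5.61 and 6.59 CPM in wild type. atf-6 replicate 3 was the highest for ceh-60 and wild-type replicate 3 the lowest. In CPM these libraries had the lowest and the highest vitellogenin total. By share of all counts the lowest and highest for the vitellogenins were instead wild-type replicate 1 (8.89%) and atf-6 replicate 2 (9.999%). No relation between ceh-60 and the vitellogenins was tested. unc-62 (WBGene00006796, chromosome V, 4497461 to 4511449, plus strand) had 47.8, 46.9, 38.5 and 36.7 CPM in atf-6 replicates 1 to 4, against 34.4, 41.0, 50.96 and 37.8 CPM in wild-type replicates 1 to 4. Its coefficient of variation of CPM within strains, 15.5%, was the largest of the 9 genes and above that of 91.6% of the well-expressed genes. That rank did not hold in TPM. There unc-62 had 12.996 ± 0.855 in atf-6 and 12.4 ± 0.793 in wild type. ceh-60 varied more for its level, with 3.59 ± 0.879 TPM in atf-6 and 3.37 ± 0.506 TPM in wild type.

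None of the 9 genes passed the test between strains. With edgeR's quasi-likelihood test 0 of 9 passed at an adjusted p of 0.05, against 0.816% of all genes tested, and 0 of 9 had an unadjusted p under 0.05, against 7.0% of all genes tested. DESeq2, which called 1.47% of its genes, and limma-voom, which called 0.776%, also called 0 of the 9. The lowest adjusted p was that of rme-2, at a fold of 0.943 (95% interval 0.830 to 1.07; log2 -0.08, SE 0.0830; edgeR adjusted p = 0.919). The summed vit-3, vit-4 and vit-5, entered in the fit as 1 feature, had a fold of 0.995 (95% interval 0.815 to 1.22; log2 -0.01, SE 0.130; edgeR adjusted p = 0.998). vit-2 had a fold of 0.973 (95% interval 0.778 to 1.22) and vit-1 of 0.979 (0.825 to 1.16). vit-3, vit-4 and vit-5 singly had folds of 0.996 (0.848 to 1.17), 1.02 (0.872 to 1.20) and 0.980 (0.818 to 1.17). vit-6 had a fold of 1.02 (0.830 to 1.26), ceh-60 of 1.05 (0.871 to 1.26) and unc-62 of 1.03 (0.847 to 1.26). The median log2 fold change of the 9 genes was -0.01, beside 0.002 for all genes tested. These intervals leave room for differences of up to about 0.778-fold or 1.26-fold, and a p above the threshold does not show that the strains were alike. For each of the genes but rme-2 the sign turned when 1 library was left out. Without atf-6 replicate 3 the log2 fold change was 0.03 for vit-1 and vit-2 and -0.03 for ceh-60, and without wild-type replicate 3 it was 0.05 for vit-2. Without wild-type replicate 1 it was -0.01 for vit-4 and -0.03 for both vit-6 and unc-62.

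**Figure D5:**
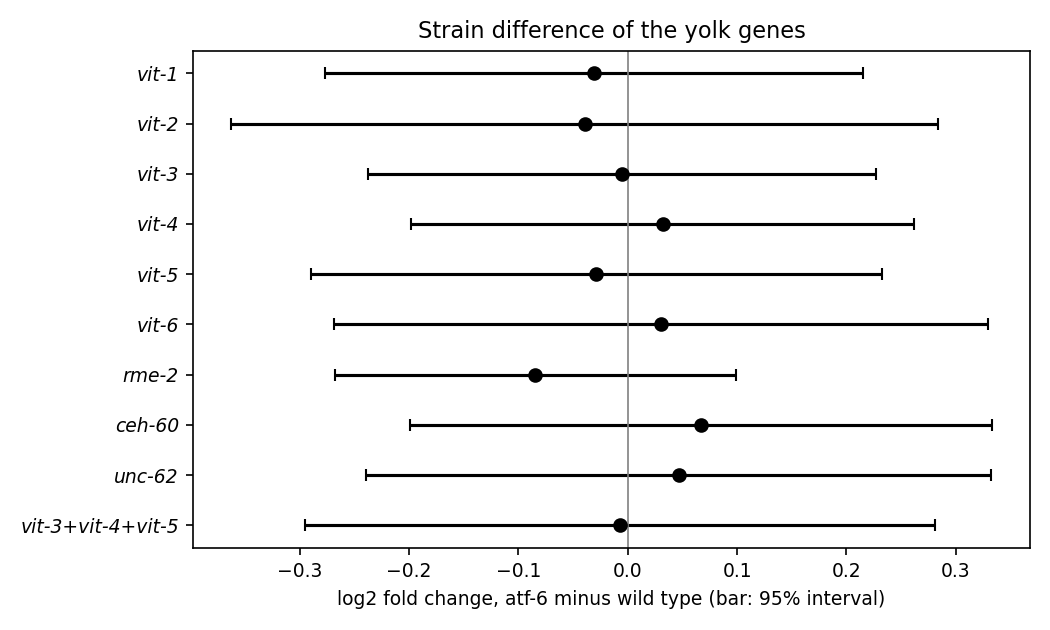
Log2 fold change, atf-6 minus wild type, of the 9 yolk genes and of vit-3, vit-4 and vit-5 summed; bars are 95% intervals from edgeR's quasi-likelihood fit (n = 4 each). Every interval holds 0 and none reaches beyond -0.36 or 0.33.

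The per-transcript estimates split the 9 genes into 27 transcripts, of which 23 could be tested. With edgeR 0 of the 23 passed, against 0.0562% of all 17800 transcripts tested, and 1 had an unadjusted p under 0.05, against 4.26% of all transcripts tested. That transcript, K07H8.6c, was a minor vit-6 transcript with 12.8 ± 3.20 TPM in atf-6 and 17.1 ± 3.67 TPM in wild type (SD, n = 4 each; log2 fold change -0.48, unadjusted p = 0.0376, adjusted p = 1.00). The main vit-6 transcript, K07H8.6a, carried 97.4 ± 2.54% of the gene's TPM in atf-6 and 98.2 ± 0.267% in wild type. The vit-6 transcript K07H8.6b had 15.6, 8.10, 141 and 42.4 TPM in atf-6 replicates 1 to 4, against 18.8, 34.2, 20.6 and 26.0 TPM in wild-type replicates 1 to 4, so atf-6 replicate 3 stood far above the rest. Estimates for isoforms that overlap depend on how the quantifier divided their reads.

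Transcripts of the receptor and of unc-62 were spread over several isoforms. For rme-2, T11F8.3a.2 carried 48.2 ± 5.39% of the TPM in atf-6 and 46.5 ± 4.58% in wild type, and T11F8.3b.2 carried 29.0 ± 7.63% in atf-6 and 36.3 ± 4.18% in wild type. T11F8.3a.1 carried 14.8 ± 5.05% in atf-6 and 9.97 ± 0.874% in wild type, with 19.5, 30.0, 36.0 and 16.9 TPM in atf-6 replicates 1 to 4, against 20.3, 16.6, 16.97 and 18.3 TPM in wild-type replicates 1 to 4. Replicates 2 and 3 of atf-6 were high for this isoform and the other 2 lay near the wild-type values. Of the 11 unc-62 transcripts, T28F12.2f (29.9 ± 1.78% in atf-6, 31.9 ± 3.46% in wild type) and T28F12.2a (27.8 ± 6.07% in atf-6, 31.9 ± 4.67% in wild type) carried the most, and 3 were listed at 0 in all libraries. T28F12.2g.1 had 1.91, 2.81, 2.43 and 2.08 TPM in atf-6, against 1.18, 2.11, 1.76 and 0.348 TPM in wild type, and did not pass (log2 fold change 0.71, SE 0.519, edgeR adjusted p = 1.00).

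Other regulators of vitellogenin genes likewise gave no call. The list held 10 genes, 9 of which were tested: 0 were higher and 0 lower at the threshold, with a median log2 fold change of 0.03 and values from -0.04 to 0.17. ELT-2, the GATA factor of the intestine, is needed for vitellogenin expression, and elt-2 had 9.86, 10.3, 10.4 and 11.3 CPM in atf-6, against 8.96, 8.80, 10.7 and 8.89 CPM in wild type (log2 fold change 0.17, SE 0.0996, adjusted p = 0.856). pqm-1, which encodes a zinc finger factor acting under TORC2 signalling on these genes, had 30.2, 21.6, 18.6 and 19.8 CPM in atf-6, against 19.8, 20.4, 25.7 and 26.5 CPM in wild type. daf-2 (insulin receptor), daf-16 (its FOXO factor), rict-1 (a TORC2 subunit) and sgk-1 (a TORC2 target kinase) had log2 fold changes of -0.04, 0.03, 0.03 and -0.02. mab-3, whose product represses vitellogenin genes in males, was left out by edgeR's filter on low counts and had a DESeq2 adjusted p of 0.973.

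The machinery of yolk uptake gave no call either. Of 17 genes for endocytosis and endosome transport, 0 were higher and 0 lower by edgeR, 0 had an unadjusted p under 0.05, and the median log2 fold change was -0.001. rme-1, an EHD protein of the recycling endosome, had a log2 fold change of -0.07, and chc-1, the clathrin heavy chain, of -0.05. rab-5 and rab-7, small GTPases of early and late endosomes, had -0.08 and -0.12. Signs were mixed, 8 positive and 9 negative, from -0.12 for rab-7 to 0.18 for aps-2, the small subunit of the AP-2 clathrin adaptor (edgeR adjusted p = 0.782). Of 7 lysosomal and gut proteases, among them cpl-1 (a cathepsin L that processes yolk in embryos), 0 passed, with a median of -0.08. Their log2 fold changes ran from -0.18 to -0.04 and were negative in 7 of 7, beside 49.3% of all genes tested. Genes of a list share the same libraries, so their signs are not separate results. The proteases summed to 5365 to 6796 CPM in atf-6 and 5596 to 7508 CPM in wild type. That sum was lowest in atf-6 replicate 3 and highest in wild-type replicate 3. asp-4 was the one with an unadjusted p under 0.05, which 7.0% of all genes had (272 ± 12.1 CPM in atf-6, 307 ± 11.8 CPM in wild type, SD, n = 4 each; adjusted p = 0.371).

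Lipid supply genes gave the widest spread of the pathway lists. Of 24 genes 23 were tested, 0 passed with edgeR, DESeq2 or limma-voom, and the median log2 fold change was 0.07. It was positive for 17 of the 23, beside 6268 of all 12375 genes tested. Genes of the list share the same libraries, so their signs are not separate results. fat-7, a stearoyl-CoA desaturase gene, had 92.7, 99.4, 108 and 107 CPM in atf-6, against 85.3, 88.3, 86.1 and 76.9 CPM in wild type. Its strains did not overlap, which held for 5.79% of all genes tested, and it missed the threshold (log2 fold change 0.28, SE 0.0700, edgeR adjusted p = 0.147). dsc-4, which encodes the large subunit of the microsomal triglyceride transfer protein that loads lipid onto lipoproteins, stood at 0.07 (SE 0.0682) on the log2 fold scale, and pod-2, an acetyl-CoA carboxylase gene, at 0.03 (SE 0.0953).

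The genes whose library pattern was most like that of the vitellogenin total were sought among 4809 genes outside the 9 with a mean log2 CPM no lower than 5. unc-101, a medium subunit of the AP-1 clathrin adaptor, came closest, with a root mean square difference of 0.0095 log2 units over the 8 libraries, beside a median of 0.12 for all candidates. It had 72.0, 69.9, 58.1 and 66.3 CPM in atf-6, against 59.8, 64.8, 75.2 and 68.1 CPM in wild type, so it was likewise low in atf-6 replicate 3 and wild-type replicate 1. srpa-72, by its name a signal recognition particle subunit, sca-1, the calcium pump of the endoplasmic and sarcoplasmic reticulum, pod-2 and vha-3, a subunit of the vacuolar proton pump, followed at 0.0266, 0.0269, 0.0283 and 0.0295. For rme-2 the closest were cdc-48.1, oma-2, cul-2, eef-1G and zipt-11, at 0.0202 to 0.0261. Of these oma-2 encodes an oocyte maturation protein, and it had 638, 614, 540 and 562 CPM in atf-6, against 585, 624, 667 and 609 CPM in wild type. With so many candidates some are close by rank alone, and the libraries are shared by all genes.

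Markers of the tissues that make and receive yolk were present in all libraries. The 15 intestinal genes summed to 3307 to 3850 CPM in atf-6 and 3306 to 4175 CPM in wild type, with 0 of 15 past the threshold. Most of that sum came from asp-1 (means of 1278 CPM in atf-6, 1315 CPM in wild type) and cpr-6 (939 and 993 CPM). Both also belong to the protease list, and elt-2 to the regulator list, so these lists are not separate measures. The 21 oocyte and eggshell genes summed to 15648 to 17869 CPM in atf-6 and 16545 to 18857 CPM in wild type. Of these 0 passed, 19 had a negative log2 fold change, and the median was -0.08, the size of that of rme-2. Among all genes tested 49.3% were negative, and the signs within a list come from shared libraries and are not separate results. None of the genes in these lists was at 0 in every library. Among sperm transcripts, the 31 major sperm protein genes summed to 239 to 387 CPM in atf-6 and 100.5 to 176 CPM in wild type, with 13 of 28 tested higher in atf-6 by edgeR, against 0.711% of all genes tested. DESeq2 called 26 of them, against 1.47% of all genes it tested. Genes of this family share the same libraries, so their calls are not separate results. That edgeR count was 2, 4, 3 and 0 without atf-6 replicates 1 to 4, 1, 2, 18 and 0 without wild-type replicates 1 to 4, and 0 with the replicate number as a block. Of 6 other sperm genes tested 1 was higher in atf-6 by edgeR, against 0.711% of all genes tested. It was spe-11 (log2 fold change 1.62, SE 0.278, edgeR adjusted p = 0.0327). Its level was low, at 1.68 ± 0.389 CPM in atf-6 and 0.520 ± 0.169 CPM in wild type (SD, n = 4 each). DESeq2 called 2, spe-11 and gsp-4, the latter at 4.02 ± 1.05 CPM in atf-6 and 1.74 ± 0.539 CPM in wild type. The sperm list summed to 19.2 to 28.9 CPM in atf-6 and 12.3 to 17.04 CPM in wild type. The vitellogenin totals overlapped, at 84845 to 103567 CPM in atf-6 and 85507 to 108769 CPM in wild type. Body muscle, hypodermis, neuron, embryo and male lists had 0 genes past the threshold. The numbers tested were 7 of 7, 8 of 9, 10 of 10, 6 of 11 and 1 of 4, so the male list rests on plg-1. The part of these tissues in the levels given here was not tested.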

How the data were processed

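Per the labels' protocols, poly(A) RNA of whole worms was made into TruSeq stranded libraries and sequenced on a NextSeq500. The build WBcel235 and the tools STAR 2.5.3a, Salmon 0.9.1 and DESeq2 1.19.51 stand in the submitters' processing notes, without role or order. The authors deposited estimated gene counts in whole numbers for 46093 genes, a table of normalized signal (those counts divided by 1 size factor per library, by the file's values; used only as a check), and per-sample files with expected counts and TPM for 58105 transcripts per the file headers. Columns were tied to samples by the library number in each sample's file. Whether counting used strand was not stated.

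Strain was tested on these counts by edgeR 4.0.16 under R 4.3.3 (filterByExpr, TMM scaling, robust quasi-likelihood fit with strain as the factor, two-sided, Benjamini-Hochberg adjustment over all 12375 genes, threshold 0.05). The SE is the absolute log2 fold change over the square root of F, and 95% intervals use the fit's degrees of freedom. Expected counts per transcript were rounded and fitted likewise. vit-3, vit-4 and vit-5 were also entered as their sum. Errors are SDs over 4 libraries. The fit was tested on simulated data. Alternatives were other scalings, filters and tools (DESeq2 1.42.0, limma 3.58.1), plain sums of transcript reads, a block for replicate number, a threshold of 0.01 and leaving out libraries.

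The members, lists and rules were chosen with earlier results of these data known. The naming rule took the 9 members, up to 4 genes past the threshold per pathway list, and the 5 genes most like the vitellogenin total and rme-2; other genes of the lists are named by role or for an unadjusted p, after their values were seen. Genes were named from a gene name table and the Ensembl annotation of WBcel235; transcript names follow the deposited files, whose annotation differs from it. Promoter and protein sequences were not analysed here. All 28 pairs of libraries differed beyond sampling noise (chi-square over its degrees of freedom at least 3.75).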

Additional observations from a re-analysis of the deposited data

Results flagged for a closer look

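Of 70 groups of 4 libraries looked at, 7 held a library apart from the other 3 by Dixon's criterion at the 95% level, which chance meets in about 1 in 20 groups. ceh-60 was at 7.70 CPM in atf-6 replicate 3, against 5.96 to 6.19 CPM in the other atf-6 libraries. The vitellogenin share of all counts was 9.14% in atf-6 replicate 3, against 9.86% to 9.999% in the others of that strain. In wild-type replicate 3 the ratio of vit-6 to vit-5 was 1.60, against 1.42 to 1.44 in the other wild-type libraries, and the share of vit-4 in vitellogenin TPM was 8.94%, against 9.71% to 9.85%. The same library had the lowest sum of the 17 endocytosis genes of its strain, 2525 CPM against 2558 to 2564 CPM. It also had the highest sum of the 4 male genes, 6.05 CPM against 4.33 CPM in each of the others. Most of that sum was plg-1, at 5.80 CPM in wild-type replicate 3. Wild-type replicate 4 had the highest sum of the 11 zygotic embryo genes, 106 CPM against 102 to 102.5 CPM, of which lin-26 gave 91.8 CPM in that library.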

How the results depend on the processing

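Under 18 alternatives none of the 9 yolk genes, nor the sum of vit-3, vit-4 and vit-5, passed the threshold (lowest adjusted p 0.635, unc-62, edgeR). The 4 pathway lists had 0 genes past it in each. Among the 18, the threshold of 0.01 reused the main fit, so no gene could newly pass there. rme-2 kept a negative log2 fold change throughout (-0.12 to -0.004). The other signs were not stable. With upper-quartile scaling the log2 fold change was 0.020 for vit-3 and 0.019 for the sum. With both replicate 3 libraries left out it was 0.089 for vit-1, 0.124 for vit-2, 0.062 for vit-3, 0.054 for vit-5, 0.068 for the sum and -0.076 for ceh-60. Leaving out 1 library at a time gave -0.075 to 0.030 for vit-1, -0.108 to 0.054 for vit-2, -0.046 to 0.036 for vit-3, -0.011 to 0.076 for vit-4, -0.079 to 0.024 for vit-5, -0.032 to 0.106 for vit-6, -0.053 to 0.040 for the sum, -0.032 to 0.104 for ceh-60 and -0.028 to 0.164 for unc-62. The cause was not tested. Over all genes 101 passed, against 194 with DESeq2, 39 with plain read sums, 15 at a threshold of 0.01, and 16 to 107 with 1 library left out. With the replicate number as a block 4 genes passed. Same-numbered libraries did not deviate together (correlations -0.39, -0.04, -0.41 and 0.04 for replicates 1 to 4; 0 of 4 atf-6 libraries matched its own number best), so the block rests on a number alone; the sum of vit-3, vit-4 and vit-5 then had a log2 fold change of -0.01. Over transcripts 10 passed, against 6 with no filter on low counts and 0 with the replicate block. The vitellogenin total had a log2 ratio of means of -0.01. It was -0.019 with RLE scaling, 0.032 in plain CPM and 0.013 in TPM, so its sign turned as well. Each of these moves was less than the spread of the replicates. ceh-60, with 80 to 161 counts a library, is the gene most limited by depth.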
